A study of Mus musculus with 9 samples.

Results

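EWS/ATF1 binding sites that were called in both cell types but were strong in the sarcoma cells alone are described here. They were chosen by the score of the peak in each list: a G1297 peak was taken when its score was at least 500, when at least 1 bp of it was shared with a peak of the sarcoma-iPSC MEF list, and when every overlapping MEF peak scored under 500. This rule gave 526 G1297-strong shared sites among the 8090 peaks called in G1297 (6.50%), and they overlapped 534 of the 27130 MEF peaks (1.97%). The score is the one MACS gives a peak, 10 times the negative log10 of its P value, so that a score of 500 stands for a P value of 1e-50. It rises with the number of reads in a library as well as with enrichment.

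The EWS/ATF1 protein was mapped by ChIP-Seq with an antibody against its hemagglutinin (HA) tag, and the binding pattern was compared between sarcoma cells and fibroblasts that carry the same inducible fusion gene. G1297 is a mouse sarcoma cell line that arose under Dox-induced EWS/ATF1. The MEFs were taken from chimeric embryos of sarcoma iPSC line #3, made by reprogramming G1297, and were selected with puromycin before use. In both cell types EWS/ATF1 was switched on with Dox at 0.2 µg/ml for 12 h. The labels describe 2 ChIP libraries of G1297 and 1 of the MEFs at that time, but each cell type has 1 peak list, without values per replicate. G1297 is a single tumor line, and the MEFs come from a single iPSC line and were represented by a single ChIP library. For the peak lists used here, HA was the only antibody. Depth is unknown, because the lists hold no read counts. No difference between the lists could be set against a spread between replicates, so no test was made and all comparisons are descriptions of these lists. Sites are given in build mm9.

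EWS/ATF1 joins the transactivating N-terminal part of EWS, an RNA-binding protein of the FET family, to the basic leucine zipper of ATF1, a member of the CREB family of transcription factors. The zipper recognizes the cyclic AMP response element (CRE), and the EWS part recruits coactivators without the phosphorylation that CREB-family proteins normally need. The fusion is the hallmark of clear cell sarcoma, a tumor with melanocytic features that is thought to be related to the neural crest. Such a factor can meet the same DNA sequence in every cell, yet how strongly it is recovered from a site differs with the chromatin and the partner proteins of the cell.

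Strong peaks, with a score of at least 500, made up 2498 of the 8090 G1297 peaks (30.9%) and 9719 of the 27130 MEF peaks (35.8%). Of the 1962 strong G1297 peaks that overlapped a MEF peak, 526 (26.8%) met only weak MEF peaks and 1436 met a strong one. The remaining shared G1297 peaks were weak, 1731 of them at a strong MEF peak and 1391 at weak MEF peaks. These shares follow from the rule and nothing is read from them. At the G1297-strong shared sites, the G1297 score ran from 500.7 to 3100 with a median of 929, and the highest overlapping MEF score ran from 90.7 to 498 with a median of 256. Since the lists are not on a common scale, each score was also ranked within its own list. The median percentile rank of the sites in the G1297 list was 82.6. For their MEF peaks in the MEF list it was 42.7, close to the middle of that list. The score rule bounds these ranks: no site ranked below 69.2 in G1297, and no MEF peak of a site ranked above 64.0. The order of the ranks was thus fixed by the rule and nothing is read from it.

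**Figure D1:**
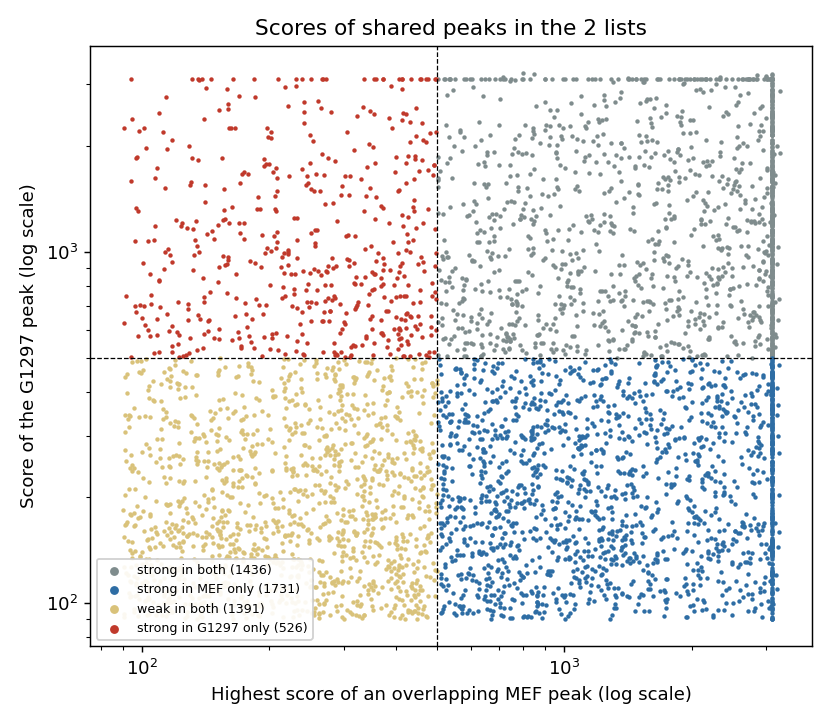
Score of each of the 5084 shared G1297 peaks (vertical, log scale) against the highest score of an overlapping MEF peak (horizontal, log scale), with dashed lines at 500. The 526 G1297-strong shared sites fill the upper left field over its whole range, and scores of exactly 3100 form a line.

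Spearman's rho between the G1297 and the MEF score was 0.006 over the 526 sites, against 0.278 over all 5084 shared peaks, where the points of each axis come from the same list. Both scores chose the sites and both thresholds narrow their range, which by itself lowers rho, so nothing is read from the difference. Split into 4 parts by MEF score, the sites had median G1297 scores of 977, 993, 876 and 927 from the weakest to the strongest MEF peaks. The MEF score was under 100 at 17 sites and at least 400 at 111. The G1297 score was under 600 at 91 sites, at least 1000 at 238 and exactly 3100 at 29, and sites tied at 3100 are not ranked by it.

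The rule fixed that the G1297 score was above the MEF score at every site, and the size of the gap is given as a description. At 441 of the 526 the G1297 score was at least 2 times the MEF score, at 66 it was at least 10 times as high, and at 34 it was less than 1.5 times as high. The median ratio was 4.26, with a range of 1.05 to 32.9, against a median of 0.548 over all shared peaks. Both scores chose the sites and depth enters both, so nothing is read from the ratio. Its upper end belongs to a site with a G1297 score of exactly 3100, a value that 209 G1297 peaks share. Ratios at sites with that score are therefore not taken as exact. By rank, 195 sites stood more than 50 percentile points higher in the G1297 list than in the MEF list. The ranks come from the scores that chose the sites, so nothing is read from this count. The MEF peak of 45 sites (8.55%) lay in the lowest 10% of its list, a share no larger than that of all MEF peaks.

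The site with the largest difference in rank lay at chr16:32740521-32742783. Its G1297 peak was 2263 bp wide with a score of 3100, and the MEF peak at the same place was 682 bp wide with a score of 94.2, near the lowest score that was called. The centres of these peaks lay 21.5 bp apart. Yet a strong MEF peak was called 7546 bp away, so the surrounding region was not without strong peaks in the MEF list. Next came chr17:79453114-79454380, with a score of 2252 in G1297 and 90.7 in the MEFs, the lowest MEF score of any of the sites. On the same chromosome, chr17:79502948-79503990 had scores of 2259.8 and 101, and it was also among the 6 sites of largest difference. Around both, the nearest strong MEF peak lay at 54790 bp and 69108 bp. These distances are ordinary for the sites, over which the lower and upper quartiles were 10580 and 129054 bp. The other sites of this group were chr19:57547459-57549147 with scores of 2386 and 94.7, chr4:55887765-55888903 with 2213 and 98.6, and chr10:84148028-84149819 with 1849 and 96.6. In contrast to the chromosome 17 sites, the chromosome 19 site had a strong MEF peak 1259 bp away.

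The 6 sites with the lowest MEF scores are named by a value that chose them, and all had to score at least 500 in G1297. Among them, chr12:101140406-101141130 had a G1297 score of 503 and a MEF score of 94.3. Likewise, chr4:140929658-140930646 had scores of 626 and 90.7, and chr15:96841832-96842911 had scores of 751 and 91.6. The site at chr10:85788552-85790048 was higher in G1297, at 1592, with 94.3 in the MEFs. The chromosome 16 site and the first chromosome 17 site above complete this group.

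At the G1297 threshold, the sites just inside were chr4:47257176-47257989 with a score of 500.7, chr6:101165101-101166141 with 501 and chr4:82095849-82096775 with 503. The shared peaks just outside, all with weak MEF peaks, were chr1:43664417-43665210 with 498, chr2:164577789-164578670 with 497 and chr5:141430412-141431418 with 497. At the MEF threshold, the sites just inside were chr5:127446883-127449181, chr9:76386647-76387852 and chr1:76193262-76194159, with MEF scores of 497.9, 497.9 and 497.5. Just outside were strong G1297 peaks at chr13:112787815-112789035, chr8:18695715-18696609 and chr1:169521965-169523291, with MEF scores of 500.9, 501 and 501. The chromosome 6 site had the smallest gap, 501 against a MEF score of 479, and shows that the rule also takes sites of nearly equal score.

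The G1297 peak was the wider of the pair at 438 of the 526 sites (83.3%), against 22.2% of all shared peaks. The median width was 1144 bp in G1297 and 922 bp for the widest overlapping MEF peak, and the median ratio of widths was 1.26. At sites strong in both cell types the order was the opposite, with 1211 bp in G1297 and 1446.5 bp in the MEFs. Where both peaks were weak, the G1297 peak was again the narrower, with 724 bp against 863 bp. Width and score come from the same reads: Spearman's rho between them was 0.703 in G1297 and 0.761 in the MEFs over the 526 sites. The width therefore follows the values that chose the sites and adds no separate evidence. In width, the G1297 peaks resembled the 536 strong G1297 peaks without any overlapping MEF peak, whose median was 1133.5 bp.

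**Figure D2:**
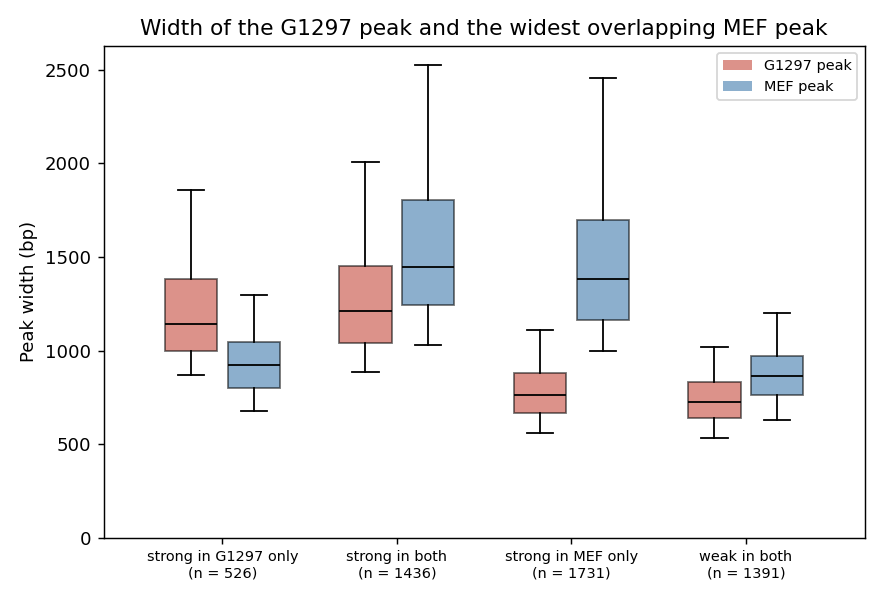
Width in bp of G1297 peaks (red) and of the widest MEF peak that overlaps them (blue) in the 4 classes of shared peaks; boxes give quartiles and median, whiskers the 5th to 95th percentile. At G1297-strong shared sites the G1297 median (1144 bp) lies above the MEF median (922 bp), and in the other classes it lies below.

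The MEF peak lay wholly inside the G1297 peak at 335 sites (63.7%), against 13.1% of all shared peaks, and the reverse held at 31 (5.89%), against 64.9%. Nesting follows from the widths, and so from the scores that chose the sites, and nothing is read from it. The centre of the G1297 peak fell inside the MEF peak at 508 sites (96.6%), against 98.9% of all shared peaks. The median distance between centres was 63 bp, with 70.75 bp at sites strong in both and 48.5 bp at sites weak in both. At 351 sites (66.7%) the centres lay within 100 bp, against 65.1% of all shared peaks. They lay more than 250 bp apart at 54 sites (10.3%), against 13.6%, and more than 500 bp apart at 11 (2.09%), against 4.39%. By the share within 100 bp, the MEF peak thus lay about as near at these sites as at shared peaks in general. The share above 500 bp was lower than over all shared peaks, and so was the share with the G1297 centre inside the MEF peak. Whether these shares differ beyond chance was not tested.

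**Figure D3:**
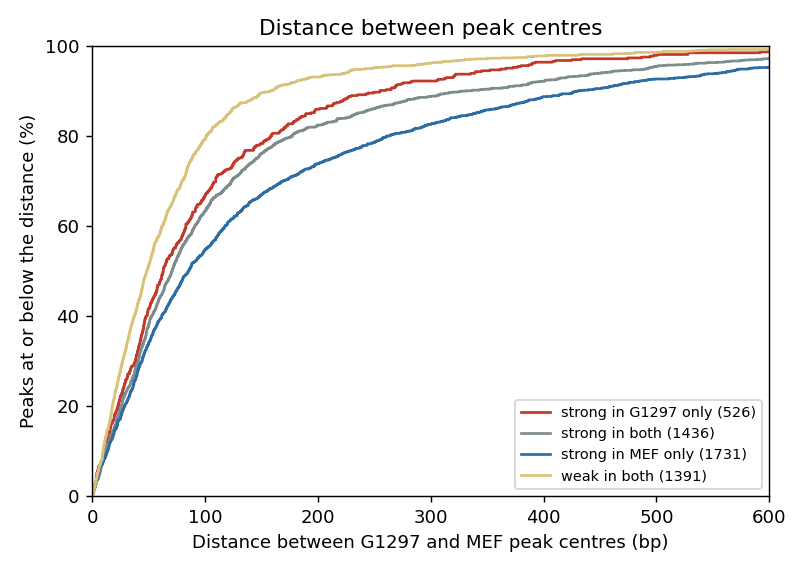
Share of peaks (%) whose G1297 and MEF centres lie within a given distance (bp), for the 4 classes of shared peaks. The curve of the G1297-strong shared sites (median 63 bp) runs between that of sites weak in both (48.5 bp) and that of sites strong in both (70.75 bp).

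Larger distances were found at the widest peaks. In 4 parts by G1297 width, the median distance between centres was 45.75 bp in the narrowest and 179.5 bp in the widest, while the median MEF width changed less, from 858 bp to 953 bp. Of the 6 widest sites among those tied at the highest score of 3100, 4 had distances above the median of the widest part and 2 had shorter ones. At chr17:81408329-81411397 the G1297 peak was 3069 bp wide and the MEF peak, with a score of 269, was 1129 bp wide and centred 743 bp away. At chr6:143080299-143083079 the MEF score was 251 and the distance 635.5 bp, and at chr15:10373034-10375526 they were 145 and 474.5 bp. The site at chr11:119885626-119887944 had a MEF score of 231 and a distance of 387 bp. At the first 3 of these the MEF peak covered a side of a broad G1297 peak and did not reach its centre. The remaining ones were centred more closely: chr3:69676047-69678745, with a MEF score of 335, had its centres 102 bp apart, and chr5:127446883-127449181, with a MEF score of 498, had them 3.5 bp apart.

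At 518 sites the G1297 peak overlapped 1 MEF peak, and at 8 (1.52%) it overlapped 2. Among all shared peaks 0.492% overlapped 2 or more, with 0.836% of sites strong in both and 0.216% of sites weak in both. These 8 were at chr3:107580124-107581396, chr4:56722969-56724691, chr5:145044008-145046127, chr6:120212444-120215114, chr6:125416395-125418853, chr8:129781752-129783423, chr10:20023510-20024733 and chr10:121339609-121341864. In the last of these, MEF peaks with scores of 329 and 427 lay side by side inside a single G1297 peak of 2256 bp. The chromosome 8 site had the most distant centres of all the sites, 1158.5 bp, because its higher MEF peak, with a score of 136, overlapped it by only 87 bp. A second MEF peak there, with a score of 106, lay inside the G1297 peak and shared 556 bp with it.

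Neighbours were counted within the distance over which the ROSE software joins peaks by default, measured between peak edges. Another G1297 peak lay within it at 267 sites (50.8%), against 41.2% of all G1297 peaks. Within 1000 bp it was 54 sites (10.3%), close to the 10.1% of all G1297 peaks and below the 13.4% of sites strong in both. Within the ROSE distance the share was 50.7% for sites strong in both, 52.8% for strong peaks of the G1297 list only, 33.0% for sites strong in the MEFs alone and 33.9% for sites weak in both. The classes of strong G1297 peaks thus had similar shares, and those of weak shared peaks had lower ones. Of the sites, 42 formed 21 pairs within the ROSE distance, no group held more than 2, and 484 stood alone. Such groups were not counted for the other classes, so nothing is read from these numbers. The closest pair was at chr11:33140132-33141591 and chr11:33141711-33143195, separated by 119 bp, with G1297 scores of 1623 and 2331 and MEF scores of 208 and 459. Another pair, at chr10:90955769-90957208 and chr10:90967336-90968890, had G1297 scores of 1982 and 2770.1 and MEF scores of 102 and 114. All 21 pairs tied for the largest group, and these were named after their values were seen.

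The neighbours were then divided by the list that held them. A G1297 peak without any overlapping MEF peak lay within the ROSE distance of 145 sites (27.6%), against 19.6% of all G1297 peaks, 20.5% of sites strong in both and 14.2% of sites weak in both. For sites strong in the MEFs alone it was 10.5%. Conversely, a MEF peak without any overlapping G1297 peak lay within that distance of 162 sites (30.8%), against 36.3% of all G1297 peaks, 34.9% of sites weak in both, 48.5% of sites strong in both and 50.5% of sites strong in the MEFs alone. Strong peaks of the G1297 list only went further the same way, with 36.0% and 20.7%. Of the 267 sites with a G1297 neighbour, the nearest was a peak of the G1297 list only for 121, a site strong in both for 58, a site weak in both for 38, another G1297-strong shared site for 26 and a site strong in the MEFs alone for 24, which is 45.3%, 21.7%, 14.2%, 9.74% and 8.99%. In the same order, these classes made up 37.2%, 17.8%, 17.2%, 6.50% and 21.4% of all G1297 peaks. The other shared classes were counted likewise, in the order strong in both, weak in both and strong in the MEFs alone. A G1297-strong shared site was nearest for 7.97%, 8.48% and 4.38% of those with a G1297 neighbour. A peak of the G1297 list only was nearest for 29.8%, 35.4% and 22.2%. Within 50000 bp, a peak of the G1297 list only lay near 53.0% of the sites, against 39.0% of all G1297 peaks and 31.8% of sites weak in both. For peaks of the MEF list only the order changed at that distance, with 68.1% of the sites, 70.5% of all G1297 peaks and 67.1% of sites weak in both, so that the sites no longer stood below the weak ones. A strong MEF peak lay within the ROSE distance of 144 sites (27.4%), compared with 23.1% of sites weak in both. Among strong peaks of the G1297 list only, the share with a strong MEF peak nearby was 19.6%. A MEF score under 500 at a site thus did not exclude a MEF peak of higher score nearby. Over all G1297 peaks, a strong MEF peak lay within the ROSE distance of 52.6%, which includes peaks that overlap a strong MEF peak. The neighbours are peaks of the same lists, and whether these shares differ beyond chance was not tested.

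**Figure D4:**
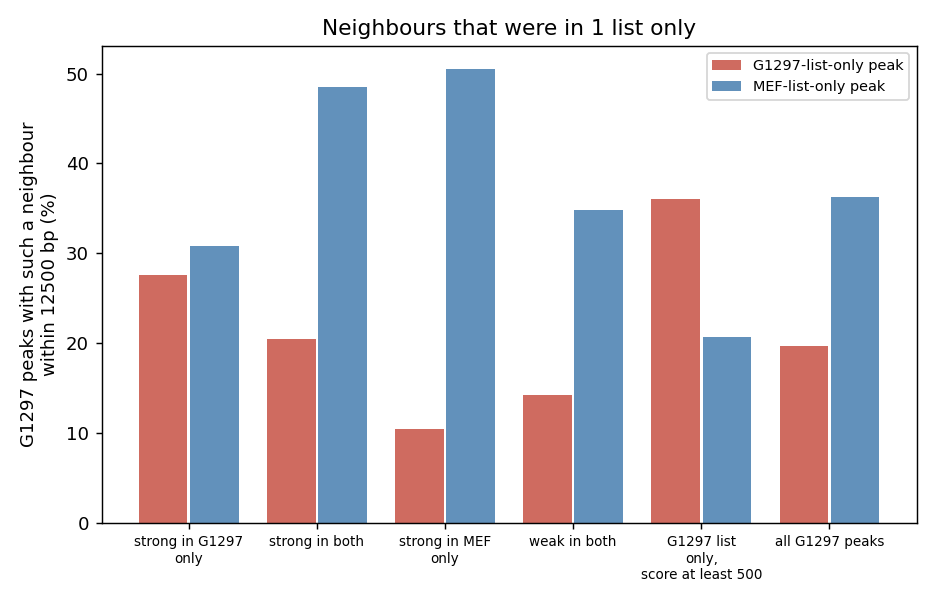
Percent of G1297 peaks with a neighbour within the ROSE joining distance that was called in the G1297 list only (red) or in the MEF list only (blue), by class. The G1297-strong shared sites stand at 27.6% and 30.8%, between sites strong in both (20.5% and 48.5%) and strong peaks of the G1297 list only (36.0% and 20.7%).

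The sites were found on all autosomes and on X, with none on Y or on unplaced contigs. Chromosome 6 held 43, chromosomes 5 and 10 held 42 each, and X held 2. Relative to all strong shared G1297 peaks, they were most frequent among the autosomes on chromosome 4, with 35 of 97 (36.1%), followed by chromosome 5 with 42 of 123 (34.1%) and chromosome 10 with 42 of 127 (33.1%). They were least frequent on chromosome 19, with 12 of 64 (18.8%), on chromosome 14, with 15 of 77 (19.5%), and on chromosome 13, with 27 of 138 (19.6%). X, with 2 of 5, held too few to compare. Whether the shares of the chromosomes differ beyond chance was not tested. The copy number of each chromosome in the libraries was not analysed here.

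**Figure D5:**
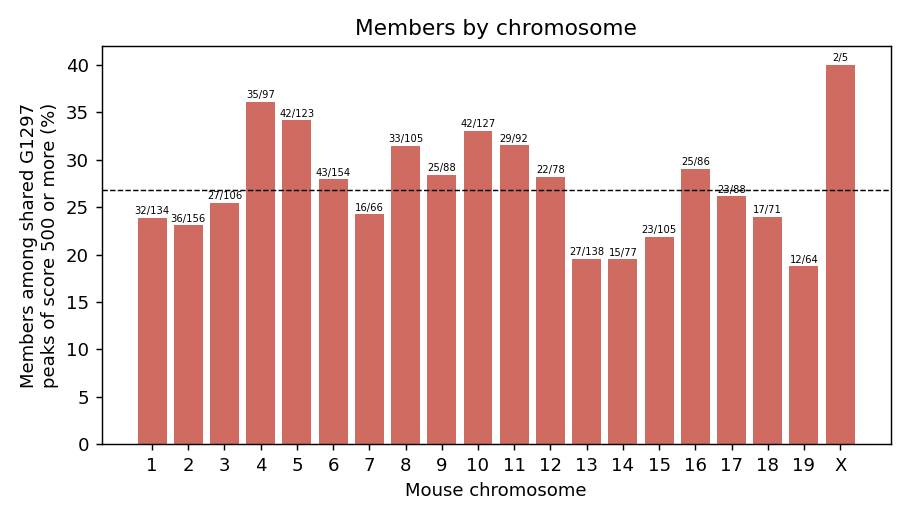
G1297-strong shared sites as a percent of all shared G1297 peaks with a score of at least 500, by chromosome, with both counts above each bar; the dashed line is the share over these chromosomes (26.8%). Among the autosomes the share ran from 18.8% on chromosome 19 to 36.1% on chromosome 4.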

How the data were processed

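HA ChIP-Seq at 12 h of Dox was used for G1297 and the sarcoma-iPSC MEFs, as 1 peak list per cell type. According to the submitters' processing notes, reads were trimmed with cutadapt, aligned to mm9 with Bowtie2 2.2.0 and peaks were called with MACS 1.4.2. The authors deposited the position and score of each peak; whether both G1297 libraries entered the list, and which input was used, is not given in the sources used here. Peaks were joined by overlap in pandas 2.3.3 and numpy 2.4.6 (Python 3.11.15), tested on simulated lists, and the 526 sites were counted again with bedtools 2.31.1. A site with several MEF peaks took the highest score and, for width, the widest peak. Percentile ranks were computed within each list, with ties averaged. Coordinates count from 1. Every site was used, with no filter. Figures were drawn with matplotlib 3.10.9, and intervals came from scipy 1.17.1.

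The sites and the quantities described were chosen with earlier results of these data known. The regions named were the 6 sites highest in G1297 score (ties by width), the 6 largest in rank difference, the 6 lowest in MEF score, 3 on either side of each threshold, the largest group of neighbouring sites and those overlapping the most MEF peaks. The splits into 4 parts, the neighbours found in a single list, the distances of 100, 250, 500, 1000 and 50000 bp and the score bands were added after seeing the data. Genes, promoters, motifs and sequences were not assigned, since a genome and annotation of build mm9 were not used here.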

Additional observations from a re-analysis of the deposited data

How the results depend on the processing

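The number of G1297-strong shared sites was 414 to 611 under other score thresholds, overlaps, ranks and units, within 1.5 times of 526, but the sites changed: a threshold of 300 in both lists gave 515, of which 317 were among the 526, and a threshold of 1000 gave 414, of which 238 were. Adding up the MEF scores removed 2. With the MEF threshold set, after seeing the data, so that each list had equally many strong peaks, 1216 sites were counted, because a MEF score of 1919 was then needed.

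The median difference in rank moved from 41.7 to 32.7 points at a threshold of 1000 and to 46.4 when the G1297 score had to be at least 2 times the MEF score, which also moved the median ratio of widths from 1.26 to 1.32. Other G1297 peaks lay within 5000 bp of 31.6% of the sites and, as chosen after seeing the data, within 50000 bp of 79.7%. The shares of all G1297 peaks at these distances were not counted, so nothing is read from them. The lower and upper quartiles of the gap to another G1297 peak were 3286 and 39638 bp for the sites. Over all shared peaks they were 4970 and 83170 bp. Sites strong in both had 2804 and 49561 bp, and strong peaks of the G1297 list only had 3073 and 40587 bp. The classes of weak G1297 peaks had larger gaps. Their quartiles were 6756 and 113905 bp at sites weak in both, and 7731 and 110378.5 bp at sites strong in the MEFs alone. The span between the chromosomes of highest and lowest share was 21.2 points with X, which held 2 of 5 and set the upper end, against 27.6 at a threshold of 1000, 25.7 with the ratio of 2 and 17.3 without X and Y, between chromosomes 4 and 19. Apart from the distances, thresholds and chromosomes that define these settings, the cause was not tested. The other 21 of 30 comparisons stayed within 1.5 times (counts), within the 95% binomial interval (medians and shares) or at the same value. No direction turned, but the score rule fixed the order of the ranks. Several settings kept nearly the same sites. With the larger overlap 524 of 525 sites met the main rule, and with the ratio of 2 all 441 did. The thresholds of 300 and 1000 shared fewer. The interval treats the sites of a single pair of lists as independent and holds no spread between replicates. The tally is therefore a description, and robustness is not read from it.

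No paired analysis was possible because the lists hold no values per replicate, and leaving out each replicate could not be run for the same reason. The alternatives for promoters and motifs were not run. Unknown depth limits any comparison of scores between the lists.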
